A study of Mus musculus with 2 samples.

Results

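Axon guidance and neural adhesion genes were described in young mouse embryonic fibroblasts (MEFs) after knockdown of the lncRNA AK156230. The group is a list of 49 genes by name: the netrins, Slits, semaphorins and ephrins with their receptors, immunoglobulin-type adhesion molecules of neurons, the neuroligin Nlgn2 and the tubulin Tubb3. A gene was taken from the probe sets that the platform annotation gives to that gene alone, and where there were several, the brightest by mean log2 signal over both arrays stood for it. In this way 48 of the 49 genes were measured, among 18193 named genes on the array. Ephb2 was not analysed here, because no probe set was annotated to it alone.

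The MEFs were primary cells of C57BL/6 embryos of day 13.5, taken from the whole embryo and used at passage 2. They were transfected with GapmeR Control, a non-targeting locked nucleic acid oligonucleotide, or with GapmeR AK156230, an oligonucleotide of the same kind through which RNase H degrades the lncRNA. Total RNA of each was hybridized to 1 Affymetrix mouse array, so no difference has a replicate check and no test was run. Genes are called lower or higher when the MAS5 signal, a probe set intensity on a linear scale, differed by 2-fold or more between the arrays. Where a pair of signals is given, the value with GapmeR Control comes first. AK156230 itself had no annotated probe set, so its own level on these arrays is not known. Over all probe sets the median signal was 54.80 on the control array and 50.95 on the array of GapmeR AK156230. A gene is called bright when its signal on the brighter array reached that array's median, and dim otherwise. In a bulk sample, fewer cells of a type and less RNA per cell cannot be told apart.

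Guidance cues steer growing axons and migrating cells. Netrins act through Dcc, neogenin and the Unc5 receptors, Slits through Robo receptors, semaphorins through plexins and neuropilins, and ephrins through Eph receptors on the neighbouring cell. Ncam1, L1cam and their relatives hold cells together and help axons to bundle. Mesenchymal cells use many of the same molecules, for instance in the migration of neural crest and in vessel growth.

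All 15 listed fibroblast markers were at or above the median signal on both arrays. So were 7 of 14 neuronal markers, among them Stmn2 and Gap43. For glia and Schwann cells this held for 3 of 6 measured markers, and for endothelium for 1 of 7. It held for 11362 of the 18193 named genes, so this limit alone does not separate the cell types. The other neuronal markers included Map2, Snap25 and Syp, which were below the median on both arrays (32.04 and 29.64, 11.73 and 10.77, and 43.78 and 41.79). Between the arrays, 7 of the 15 fibroblast markers (46.7%) were lower and none higher at the 2-fold threshold. Of all named genes 3.85% were lower and 1.59% higher. The fibroblast markers had a median log2 ratio (GapmeR AK156230 over Control) of -0.99. Their summed signal was 43247 in the control and 28982 after the knockdown. Of the 14 neuronal markers, 1 dim gene (Nefm, 35.57 and 17.55) was lower, and the summed signal was 1199 and 1032. Of the 6 measured markers of glia and Schwann cells none was past 2-fold, and of 7 of endothelium Kdr was higher (44.54 and 90.91). The part of these shifts in the results below was not tested.

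With GapmeR AK156230, 13 of the 48 genes (27.1%) were lower by 2-fold or more, where 3.85% of all named genes were. Epha2 was the 1 gene of the group that was higher by 2-fold or more (2.08%, with 1.59% of all named genes). The lower genes were Ncam1, Sema3d, Slit3, Plxna2, Ntn1, Slit2, Efna5, Epha3, Sema5a, Neo1, Sema6d, Efnb2 and Tubb3. All 14 were bright, but a lower gene can meet that rule through its control signal alone. With GapmeR AK156230, Ntn1 (43.02), Sema3d (13.73) and Sema5a (35.66) were below that array's median. Among the 43 bright genes of the group 30.2% were lower, with 4.92% of 12319 bright named genes. Epha2 was again the 1 higher gene, with 1.90% of bright named genes higher. On both arrays 38 of the 48 genes were at or above the median, so the share among bright genes is not a check against background. The log2 ratio (the signal with GapmeR AK156230 over that with GapmeR Control) had a median of -0.24 for the 48 genes and -0.07 for all named genes. It was below 0 for 38 of the 48 genes and for 10700 of the 18193 named genes. The genes were chosen with results of these arrays known, so these shares describe the list. By role, 8 of 19 ligands (42.1%) and 3 of 21 measured receptors (14.3%) were lower.

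**Figure D1:**
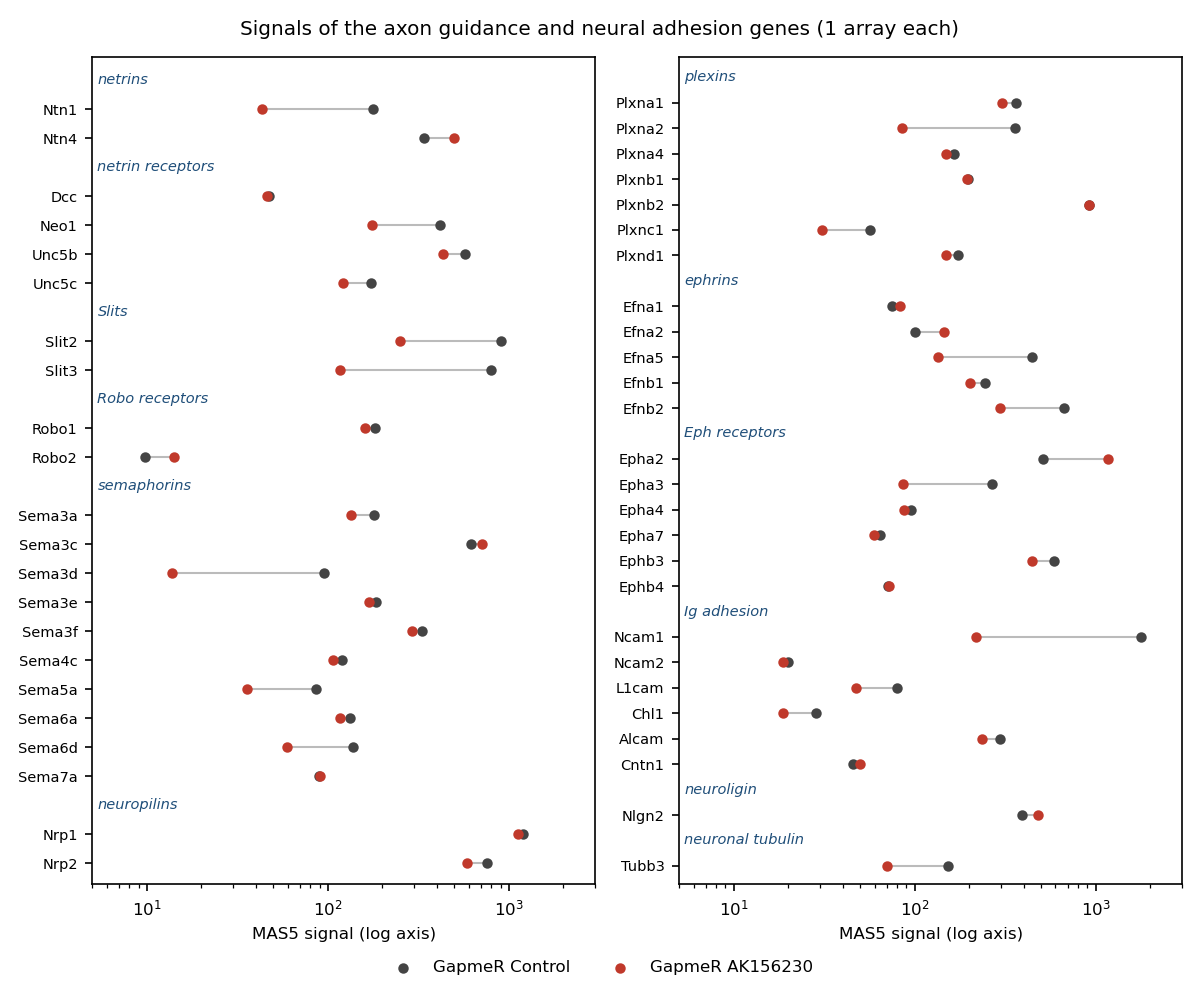
MAS5 signal (log axis) of each of the 48 measured genes, grouped by role, with a point for GapmeR Control and a point for GapmeR AK156230 joined by a line. Ncam1 spans 1780.03 to 217.83 and Slit3 799.58 to 116.67, while Epha2 is the gene with a long line to the right, from 512.60 to 1174.48.

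Promoter windows of the genes with the largest decreases for which RefSeq (GRCm38.p6) gave a window, Sema3d, Slit3, Plxna2 and Slit2, and of Epha2, the gene that was higher, are shown 5′ to 3′, so that the sequences at the starts of genes that moved in opposite directions can be set side by side. Each window runs from 250 bases before to 50 after a transcript start of that table, which for Slit2, Plxna2 and Sema3d is not the start of the gene span given with their signals. Capitals mark GGGCGG (the GC box), CCAAT (the CCAAT box) and TATAAA (the TATA box) on either strand.
Sema3d, chr5:12382916-12383215, plus strand: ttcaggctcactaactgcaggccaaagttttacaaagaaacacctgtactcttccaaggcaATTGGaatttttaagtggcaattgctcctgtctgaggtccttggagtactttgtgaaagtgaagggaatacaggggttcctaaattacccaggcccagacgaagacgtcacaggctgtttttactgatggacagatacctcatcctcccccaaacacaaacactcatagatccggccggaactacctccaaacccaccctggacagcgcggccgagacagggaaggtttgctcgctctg
Slit3, chr11:35121206-35121505, plus strand: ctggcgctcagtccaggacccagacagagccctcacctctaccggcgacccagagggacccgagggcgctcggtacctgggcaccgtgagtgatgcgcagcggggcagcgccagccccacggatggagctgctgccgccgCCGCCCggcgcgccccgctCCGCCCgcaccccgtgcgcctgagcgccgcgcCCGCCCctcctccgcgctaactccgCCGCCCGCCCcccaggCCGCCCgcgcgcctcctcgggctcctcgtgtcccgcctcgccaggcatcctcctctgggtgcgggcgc
Plxna2, chr1:194619579-194619878, plus strand: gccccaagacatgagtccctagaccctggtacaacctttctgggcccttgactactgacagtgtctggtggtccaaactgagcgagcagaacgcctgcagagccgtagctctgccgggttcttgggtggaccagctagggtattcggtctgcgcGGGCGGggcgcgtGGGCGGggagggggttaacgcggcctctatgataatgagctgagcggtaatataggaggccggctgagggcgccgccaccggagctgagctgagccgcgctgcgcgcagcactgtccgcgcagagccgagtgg
Slit2, chr5:47982905-47983204, plus strand: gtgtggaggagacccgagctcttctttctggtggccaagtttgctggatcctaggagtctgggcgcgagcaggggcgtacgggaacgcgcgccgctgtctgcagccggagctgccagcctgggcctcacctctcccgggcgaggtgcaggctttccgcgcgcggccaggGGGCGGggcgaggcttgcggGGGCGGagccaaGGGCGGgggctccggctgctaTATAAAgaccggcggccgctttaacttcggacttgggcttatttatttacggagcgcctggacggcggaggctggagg
Epha2, chr4:141300971-141301270, plus strand: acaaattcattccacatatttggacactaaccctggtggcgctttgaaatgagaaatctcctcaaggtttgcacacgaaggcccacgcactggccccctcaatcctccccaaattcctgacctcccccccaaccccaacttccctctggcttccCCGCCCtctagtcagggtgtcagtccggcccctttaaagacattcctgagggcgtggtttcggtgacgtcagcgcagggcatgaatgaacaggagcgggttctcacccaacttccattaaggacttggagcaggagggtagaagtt

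The Slit3 window held 41 CpG dinucleotides and 6 GC boxes, an overlapping pair among them. The Slit2 window held 30 CpG and 3 GC boxes, with a TATA box, and the Plxna2 window 25 CpG and 2 GC boxes. The Sema3d window held 8 CpG and no GC box, and the Epha2 window 10 CpG and 1 GC box. A window was found for 41 of the 48 genes, 51 windows in all, of which 72.5% held a GC box, 25.5% a CCAAT box and 5.88% a TATA box, with 35.7%, 37.4% and 13.6% of all 32851 windows. The 12 windows of lower genes came from 11 genes. Of these windows 9 held a GC box, 4 a CCAAT box and 2 a TATA box. Their median CpG number was 25.5, with 23 for the windows of the whole group and 7 for all windows. The 32851 windows belong to 27025 genes and were not limited to genes on the array or to bright genes. They are therefore not a matched background for this group. A match of these letters is a description and not a binding site.

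Netrins and Slits. Of the 4 secreted ligands of these families 3 were lower, and Slit3 had the largest change. Slit3, a repellent of axons that is also made by mesenchyme, lies on chromosome 11 from 35121456 to 35708507. With GapmeR Control its signal was 799.58, and with GapmeR AK156230 it was 116.67, which is 6.85-fold lower (log2 ratio -2.78), and 0.357% of bright named genes had a ratio as low. Slit2, on chromosome 5 from 47981291 to 48307735, was 3.61-fold lower (907.09 and 251.06), and its further probe sets had log2 ratios of -1.34 and -0.99. Both Slits thus had lower signals at every probe set, although Slit3 had only 1.

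Ntn1, the founding chemoattractant of commissural axons, is found on chromosome 11 (68209364 to 68386826) and was 4.10-fold lower (176.47 and 43.02). Its other probe set was dim on both arrays (16.56 and 18.56), and the mean of both was a log2 ratio of -0.94. Ntn4, a netrin of basement membranes, went the other way without reaching 2-fold (338.62 and 495.87, log2 ratio 0.55). Netrin genes therefore did not move as a family.

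Among the receptors of these ligands, Neo1 alone was lower by 2-fold or more. Neo1 encodes neogenin, a receptor of netrins and of repulsive guidance molecules (chromosome 9, 58874679 to 59036614). It was 2.37-fold lower (416.60 and 175.61), and a second bright probe set was 2.39-fold lower. With the mean over its 5 probe sets its log2 ratio was -0.92.

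The repulsive netrin receptors Unc5c (172.94 and 120.76) and Unc5b (573.53 and 433.64) had log2 ratios of -0.52 and -0.40. Robo1, the Slit receptor that was bright here, had 181.16 and 159.64, a log2 ratio of -0.18. Dcc, the classical netrin receptor of axons, and Robo2 were dim on both arrays, and their ratios are open to background. At the probe sets that stand for the genes, both Slits were thus lower by more than 3-fold while Robo1 differed by 1.13-fold. With the mean of all probe sets, dim ones included, the log2 ratio was -1.40 for Slit2 and 0.11 for Robo1.

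Semaphorins, neuropilins and plexins. Of the 10 semaphorins, which signal through plexins, 3 were lower, none was higher and 7 lay within 2-fold. Sema3d, a secreted class 3 semaphorin, is found on chromosome 5 (12383161 to 12588953) and had signals of 94.61 and 13.73, 6.89-fold lower. The lower signal is near the bottom of the range, and with 24.3 added to every signal its log2 ratio was -1.64 instead of -2.78. A further, dim probe set of Sema3d was at -0.34.

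Sema5a and Sema6d encode transmembrane semaphorins. Sema5a, on chromosome 15 from 32244813 to 32696341, was 2.43-fold lower (86.53 and 35.66), and a second bright probe set was 5.30-fold lower (62.31 and 11.75). Sema6d, on chromosome 2 from 124089943 to 124667789, was 2.32-fold lower (137.64 and 59.21). Neither was firm: with 24.3 added to every signal the log2 ratio was -0.89 for Sema5a, and that of Sema6d was -0.62 with the mean of its probe sets.

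The other secreted semaphorins were within 2-fold. Sema3a, the collapsin that repels sensory axons, had 180.36 and 135.05 (log2 ratio -0.42), and Sema3c had 614.76 and 707.92 (0.20). Sema3e and Sema3f were at -0.14 and -0.18, but the value of Sema3f comes from an _x_at probe set, and its other bright probe set was at -0.73 (74.65 and 45.10). Of the membrane-bound members, Sema6a, Sema4c and Sema7a were between -0.18 and 0.03. Sema3a, Sema3c, Sema3d and Sema3e all lie on chromosome 5 between 12383161 and 17730268, and of these neighbours Sema3d alone was past 2-fold.

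Plxna2, a plexin that pairs with neuropilins and binds class 6 semaphorins, lies on chromosome 1 from 194619791 to 194816869. It was 4.23-fold lower (358.85 and 84.87), and its further probe sets, all bright, had log2 ratios of -1.73, -1.23 and -0.99. Each of its 4 probe sets was thus lower. The other plexins were within 2-fold. Plxnc1, the receptor of Sema7a, came nearest with 56.90 and 30.70 (log2 ratio -0.89). The further probe sets of Plxnc1 were all dim. The brightest of them was 3.49-fold lower (50.14 and 14.38), and the others had log2 ratios from -1.01 to 0.30. Plxna1 (363.49 and 304.70) and Plxnd1 (173.74 and 149.11) were at -0.25 and -0.22. Plxnb2 had nearly equal signals of 923.56 and 921.37.

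Neuropilins bind class 3 semaphorins and also VEGF. Nrp1 had 1194.84 and 1127.83 (log2 ratio -0.08), and Nrp2 had 760.09 and 586.54 (-0.37). Nrp2 was not the same at all its probe sets: a bright probe set that does not stand for the gene was 3.45-fold lower (424.74 and 123.26), while another was at -0.33 (398.70 and 316.10). Which transcripts these probe sets read was not tested.

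**Figure D2:**
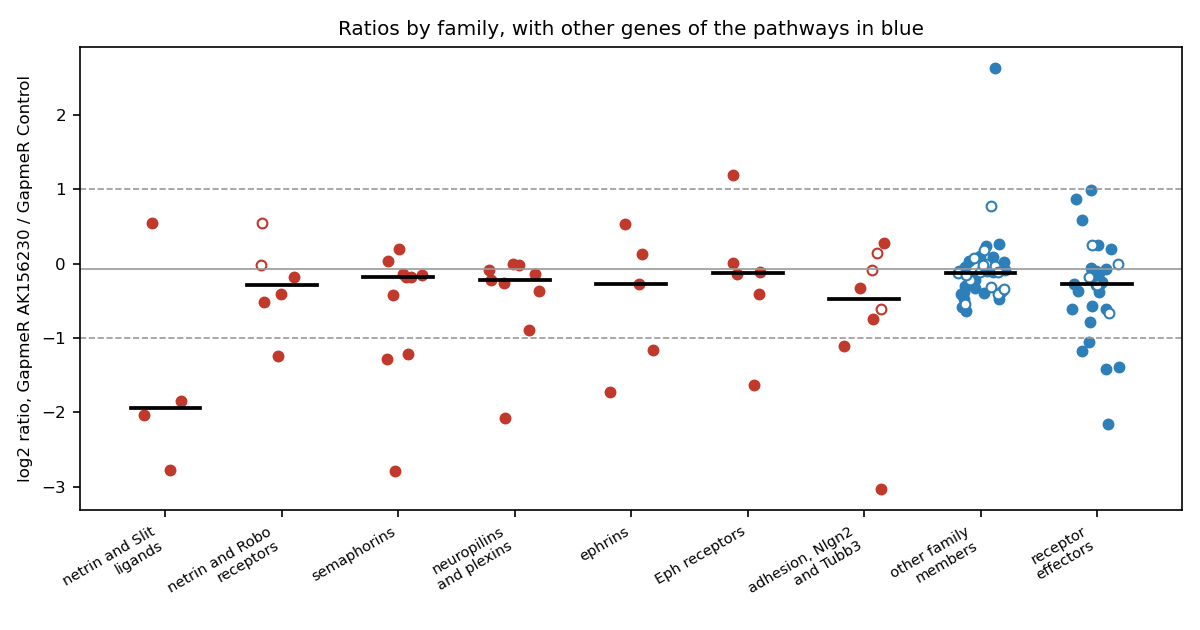
log2 ratio between the arrays (GapmeR AK156230 over Control) for the genes of each family (red) and for other genes of the same pathways (blue), with filled points for bright and open points for dim genes, a black bar at each median, dashed lines at 2-fold and a grey line at -0.07, the median of all named genes. Of the netrin and Slit ligands 3 of 4 lie below the lower dashed line, whereas Epha2 at 1.20 and Epha1 at 2.63 lie above the upper.

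Ephrins and Eph receptors. These genes were past 2-fold in both directions. Ephrin-A ligands are held to the membrane by a lipid anchor and ephrin-B ligands span it. Efna5, on chromosome 17 from 62602957 to 62881317, was 3.31-fold lower (446.54 and 134.93). The other probe set of Efna5 was dim and within 2-fold (26.95 and 15.43, log2 ratio -0.80). With the mean of both the log2 ratio was -1.27. Efnb2, which marks arterial endothelium and also acts in mesenchyme, is found on chromosome 8 (8617235 to 8661242) and was 2.25-fold lower (668.66 and 297.77). A second bright probe set of Efnb2 was 2.43-fold lower (475.39 and 195.46), but another bright one was level (76.90 and 80.71), and the mean over its probe sets was -0.73.

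Efna2 (100.54 and 146.05), Efnb1 (243.42 and 201.25) and Efna1 (75.40 and 82.64) were within 2-fold, with log2 ratios of 0.54, -0.27 and 0.13. Ephrins of both classes were therefore found on both sides of the 2-fold line.

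Among the receptors, Epha3, which binds ephrin-A5, was lower and Epha2 was higher. Epha3, on chromosome 16 from 63543532 to 63864175, was 3.11-fold lower (268.85 and 86.44), with further bright probe sets at log2 ratios of -1.07 and -0.49. Over all its probe sets the mean was -0.87. Epha2, a receptor abundant in epithelium and many tumour cells, lies on chromosome 4 from 141301221 to 141329384. The signal of Epha2 was 512.60 in the control and 1174.48 after the knockdown, 2.29-fold higher (log2 ratio 1.20), and 1.31% of bright named genes had a ratio as high. Epha2 had 1 probe set, so no second probe set bears on its value.

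Ephb3 (590.39 and 443.42), Epha4 (95.79 and 87.02) and Epha7 (64.54 and 59.44) had log2 ratios of -0.41, -0.14 and -0.12. Ephb4 was level, at 71.47 and 71.75. The value of Epha4 depended on the probe set: 2 of its further bright probe sets were at -0.94 (126.21 and 65.76) and -1.23 (119.80 and 51.20), and both were brighter with GapmeR Control than the probe set that stands for the gene.

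Neural adhesion molecules, Nlgn2 and Tubb3. Ncam1 had the largest difference of the whole group. It encodes the neural cell adhesion molecule, which is also present on mesenchyme, and lies on chromosome 9 from 49502129 to 49799393. The signal of Ncam1 was 1780.03 in the control and 217.83 after the knockdown, 8.17-fold lower (log2 ratio -3.03), and 0.227% of bright named genes had a ratio as low. A second probe set was 9.00-fold lower (1399.51 and 155.50). The other 4 bright probe sets of Ncam1 had log2 ratios of -1.92, -1.68, -1.37 and -0.63, and the dim one -0.46, so all 7 were lower but by unequal amounts.

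L1cam, another adhesion molecule of axons, had 79.46 and 47.35 (log2 ratio -0.75), and Alcam, a ligand of CD6 and of itself, had 296.62 and 235.25 (-0.33). One further probe set of Alcam came close to 2-fold at -0.97 (236.24 and 120.49). Ncam2, Chl1 and Cntn1, relatives of Ncam1 and L1cam, were dim on both arrays, with log2 ratios from -0.61 to 0.14. Nlgn2, a postsynaptic adhesion protein of inhibitory synapses, had 394.21 and 479.03 (0.28). Its other probe set, also bright, went the other way, at -0.27 (201.27 and 166.97). Tubb3, the beta-tubulin used as a marker of neurons, is found on chromosome 8 (123411553 to 123422015) and was 2.16-fold lower (152.14 and 70.28), with 1 probe set and a log2 ratio of -0.90 with 24.3 added to every signal. The neuronal genes Stmn2 (332.03 and 233.88) and Gap43 (219.43 and 237.62), which were bright in these cells, had log2 ratios of -0.51 and 0.11.

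**Figure D3:**
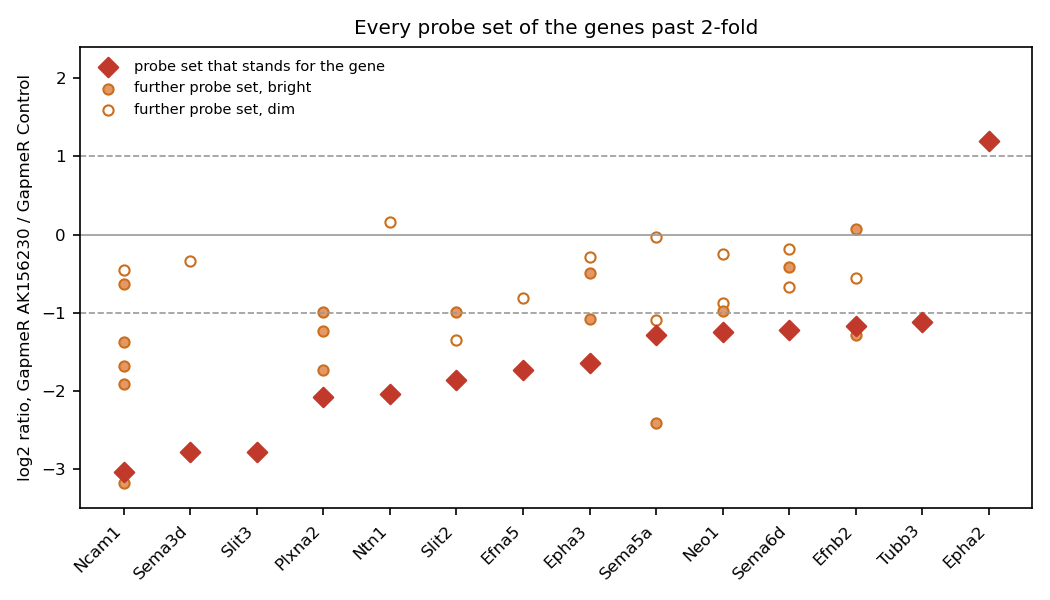
log2 ratio between the arrays (GapmeR AK156230 over Control) for every probe set of the 14 genes past 2-fold, with a red diamond for the probe set that stands for the gene and circles for further probe sets, filled when bright, and dashed lines at 2-fold. All 7 of Ncam1 and all 4 of Plxna2 are below 0, whereas Efnb2 has a bright probe set at 0.07.

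The probe sets of a gene gave the only internal check. For 11 of the 14 genes past 2-fold there were 30 further probe sets, of which 28 had the same sign as the one that stands for the gene and 12 were past 2-fold in the same direction. Limited to bright ones, these numbers were 17, 16 and 10. Of the 18193 named genes, 10700 had log2 ratios below 0 and 3.85% were lower by 2-fold or more. The same sign at a further probe set of a lower gene therefore says little by itself. The matching shares for probe sets of other genes were not computed. The genes within 2-fold had 25 further bright probe sets, of which 2 (of Nrp2 and Epha4) were past 2-fold, both lower. Dim probe sets of Plxnc1, Chl1 and Epha7 that were lower by 2-fold or more are not in this count. Over 5113 named genes with at least 2 bright probe sets, the log2 ratios of the brightest pair gave an SD of 0.276 for a probe set, which is a spread within arrays and not between replicates.

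Other ligands, receptors and adhesion molecules did not show the same share. The 40 other genes were of the netrin, Slit, Robo, Unc5, semaphorin, plexin, ephrin, Eph, contactin and neuroligin families, with Nrcam and Nfasc. Of these 40 none was lower by 2-fold or more. Of all named genes 3.85% were lower. Among the 40 genes 1 was higher (2.5%), with 1.59% of all named genes. Both shares were thus near those of all named genes. The median log2 ratio of the 40 genes was -0.12. The higher gene was Epha1, an Eph receptor of epithelium, which had 25.62 in the control, below the median signal, and 158.78 after the knockdown (log2 ratio 2.63). Of these 40 genes 25 were bright, with 43 of the 48 genes described above, and their median genomic length was 30.9 kb, with 154.3 kb. The 40 genes were left after the group was chosen with results of these arrays known, so a smaller share among them may follow from that choice. The lists were not drawn alike, and the difference in shares was not tested.

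Of 31 measured effectors that act inside the cell below these receptors, 5 (16.1%) were lower, where 3.85% of all named genes were. None was higher, with 1.59% of all named genes, and the median log2 ratio was -0.27. Among the 26 bright effectors 19.2% were lower, with 4.92% of bright named genes. Srgap1, a Slit-Robo GTPase activating protein, was 4.46-fold lower (225.82 and 50.62), and Srgap3, of the same family, 2.68-fold lower (246.84 and 92.25). Srgap2 had 402.35 and 333.05, a log2 ratio of -0.27. The Rac activators Tiam1 (166.33 and 63.45) and Trio (659.29 and 291.47), the latter a partner of netrin receptors, were 2.62-fold and 2.26-fold lower. Sipa1l1 was the other lower gene, at a log2 ratio of -1.05. The 5 lower effectors were 229.5 to 358.5 kb long, with a median of 125.0 kb for all measured effectors. Of bright named genes over 160 kb, 25.4% were lower. The part of length in the signals of the effectors was not tested. Ptk2 was not analysed here, because no probe set was annotated to it alone.

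The lower genes of the group were long. The 13 lower genes had a median genomic length of 278.4 kb (10.5 to 587.1 kb), the other 30 bright genes of the group 57.6 kb (9.22 to 1020 kb), and all bright named genes with a length 22.5 kb. Of the 17 bright genes of the group over 160 kb, 11 were lower by 2-fold or more, and of 779 such genes on the array 25.4% were. Of 12 from 40 to 160 kb Efnb2 alone was lower, with 6.39% of all such genes, and of 14 under 40 kb Tubb3 alone, with 2.43%. The 6 long genes that were within 2-fold were Unc5c, Robo1, Sema3a, Sema3e, Plxna4 and Alcam. Robo1, the longest of the bright genes of the group at 1020 kb, was at -0.18, and Plxna4, at 443.6 kb, had 164.85 and 149.82 (-0.14). Across the 43 bright genes of the group, which share both arrays, length and log2 ratio had a Spearman correlation of -0.54, and across 12303 bright named genes of -0.19. The part of length in the lower signals was not tested.

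**Figure D4:**
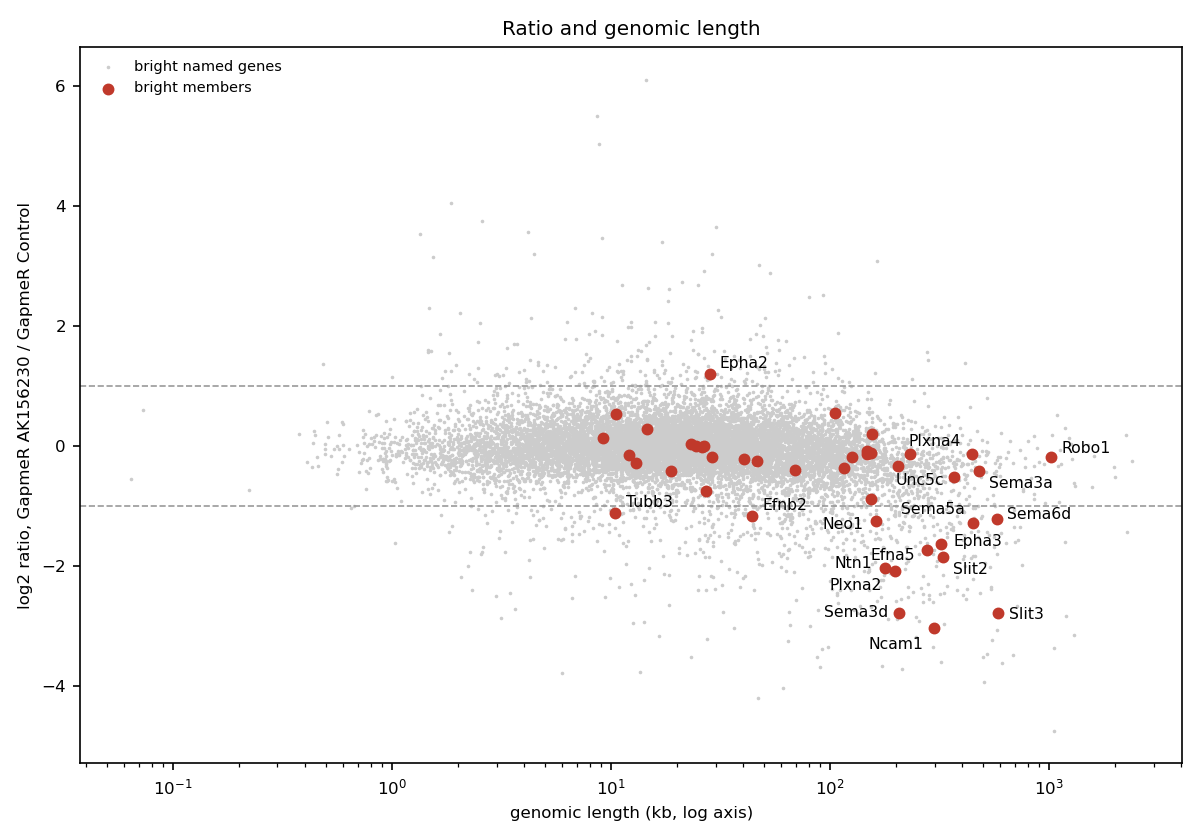
log2 ratio between the arrays (GapmeR AK156230 over Control) against genomic length (kb, log axis) for 12303 bright named genes (grey) and the 43 bright genes of the group (red), with dashed lines at 2-fold. Below the lower dashed line 11 of 13 red points are over 160 kb, while Robo1, Plxna4, Sema3a and Unc5c are as long and lie above it.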

How the data were processed

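MEFs at passage 2 were measured on 1 array per condition. The deposited values are linear intensities, namely the MAS5 signal of each probe set, which the authors scaled within each array in GeneChip Operating Software; version and scaling target: not given in the sources used here. Detection calls are not part of the table. The array is called porcine in the paper's methods, but the labels give mouse RNA and the probe sets match the mouse platform annotation, which was used. Both signals equalled those in the paper's supplementary table of changed genes in each of the 171 rows in hand, which settles scale and direction. Its columns of the authors' own ratios were not used.

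Log2 ratios were taken on the deposited signals (45037 probe sets, from 1 to 9206.82). Of these, 34945 had 1 gene symbol, 932 several and 9160 none; symbols were updated through the Entrez ID. Positions and lengths are RefSeq, GRCm38.p6. The threshold of 2-fold is the one stated in the paper; its test (SAM) needs replicates. The number of arrays limits the precision, and a signal below an array's median may be background. The genes, roles, pathway lists and markers were chosen with earlier results of these data known. Both signals are given for genes past 2-fold and for up to 3 bright genes within 2-fold per role; others, and the promoters, were named after their values were seen.

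Alternatives were scaling to the same median, quantile normalization, loess on mean signal, adding the 25th percentile of all signals (24.3), the mean of all probe sets, the probe set brightest with GapmeR Control, leaving out _x_at and _s_at probe sets, and thresholds of 1.5-fold and 3-fold. Counting was tested on simulated data with set fold changes. This checks the counting step only, and not the choice of probe sets or the spread between arrays. Software was Python 3.11.15, scipy 1.17.1, numpy 2.4.6, statsmodels 0.14.6, pandas 2.3.3 and matplotlib 3.10.9.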

Additional observations from a re-analysis of the deposited data

How the results depend on the processing

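The count of 13 lower genes and 1 higher gene was the same after a loess correction, quantile normalization, scaling to equal medians, taking the probe set brightest with GapmeR Control, or leaving out _x_at and _s_at probe sets. With 24.3 added to every signal 10 were lower, without Sema5a, Sema6d and Tubb3. With a gene's probe sets averaged 8 were lower, all of them bright, without Ntn1, Neo1, Sema6d, Efnb2 and Epha3; dim probe sets enter that mean. At 3-fold 8 were lower and 0 higher, and at 1.5-fold 16 were lower and 1 was higher. Of the 14 genes past 2-fold, 7 (Slit2, Slit3, Sema3d, Plxna2, Efna5, Ncam1 and Epha2) were past it under all 7 alternatives of scaling, offset and probe set, and none of the 14 changed sign. Scaling to equal medians moved the median of all named genes from -0.07 to 0.03, and 3.20% of them were then lower and 2.13% higher. No paired analysis was possible because each condition had 1 array. For the same reason no replicate could be left out, and signals under the array's median limit what the ratios of dim genes show.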
